A study of Mus musculus with 31 samples.

Results

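Cartilage is built from a small set of secreted proteins, and 8 of their genes are described here in mouse medulloblastoma cultures: Hapln1, Acan, Col9a1, Col9a2, Col9a3, Col2a1, Col11a1 and Matn4, out of 18194 genes measured. The 8 were chosen by their high log2 values in cultures of p53 heterozygous tumours, known from earlier results of the same arrays. Their levels in those cultures are therefore given as a description, without a test. Each gene is read from 1 probe set, the one with the highest mean over all 31 arrays among those assigned to that gene alone.

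The samples came from C57BL/6 mice. Neural stem cells (NSC) were grown as neurospheres with EGF and FGF2 from cerebellar white matter, from the IV ventricle region and from the subventricular zone (SVZ) at postnatal day 7, with 3 cultures of each; the labels give them no altered allele. All tumours arose in mice heterozygous for Ptch, the receptor that restrains Sonic hedgehog signalling, and medulloblastoma is a tumour of the cerebellum. Tumour cultures, called cancer stem cells in the labels and grown in the same medium, came from 8 tumours with wild-type p53 (tumours 74, 91, 92, 9, 49, 68, 77 and 83), and the matched tissue of each tumour was measured too. A further pair of cultures was derived from tumours 27 and B, whose hosts carried 1 altered copy of p53 as well as of Ptch (called p53 het here). Each p53 het culture was measured on 3 arrays that the labels call technical replicates. Their names carry different Roman numerals and endings, and array 3 has a numeral of its own in each tumour; the labels do not explain these, so what the spread between the 3 arrays covers is not known. The p53 het group is 2 tumours, no p53 het tissue was analysed here, and ages of the tumour mice are not in the labels.

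Cartilage fibrils consist mainly of type II collagen (Col2a1). Type XI collagen (Col11a1) lies in the fibril core and limits its width, and type IX collagen (Col9a1, Col9a2 and Col9a3, the chains of one heterotrimer) sits on its surface. Aggrecan (Acan) is the large chondroitin sulphate proteoglycan that fills the space between fibrils; it is anchored on hyaluronan by the link protein Hapln1, and matrilins such as Matn4 bridge collagens and proteoglycans. In chondrocytes these genes are switched on by Sox9 together with Sox5 and Sox6, while in the brain aggrecan and Hapln1 are known from the perineuronal nets around neurons.

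Values are log2 intensities on the RMA scale, where a step of 1 means a 2-fold change; array medians lay between 3.17 and 3.32. To see how silent genes read on these arrays, 3 Y-linked genes were taken on the 19 arrays where Eif2s3y, one of them, was under 2. This background guide lay between 0.72 and 1.67. Levels of different genes come from different probes and are not set against each other. Ptch1 was lower than in hindbrain NSC (the mean of the cerebellar and IV ventricle groups, 8.26) in the p53 wild-type lines (6.63 ± 0.75, SD, n = 8; limma adjusted p = 0.00414) and in the p53 het tumours (6.67 ± 1.30, SD, n = 2; adjusted p = 0.0197). Neural stem markers were detected in every group, with a mean level over 8 markers of 8.21 to 8.84 in hindbrain NSC, 8.14 to 9.37 in the lines and 7.17 to 7.42 in the p53 het tumours. Granule precursor markers, which define this tumour type in tissue, had a mean level of 8.05 to 8.69 in the tissues but 3.38 to 3.77 in the lines and 3.21 to 3.37 in the p53 het cultures. The endings of the p53 het sample names, a code the labels do not explain, were shared with no other group, so whatever that code stands for and the p53 het group cannot be told apart.

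Since the 8 genes were high in the same 2 cultures, the sequences at their start sites were read from RefSeq (GRCm38.p6). Windows of 300 bases, 250 before the start and 50 after it, were held for 6 of the 8 genes; Col9a3 and Col2a1 had no entry. The windows of Hapln1, Acan, Col11a1 and both starts of Col9a1 are printed: Hapln1, Col9a1 and Acan had the largest p53 het differences of the 8, and Col11a1 differed most between tumours 27 and B. Capitals mark each match to the Sp1 box GGGCGG on either strand.

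Hapln1 (chr13:89540386-89540685, + strand): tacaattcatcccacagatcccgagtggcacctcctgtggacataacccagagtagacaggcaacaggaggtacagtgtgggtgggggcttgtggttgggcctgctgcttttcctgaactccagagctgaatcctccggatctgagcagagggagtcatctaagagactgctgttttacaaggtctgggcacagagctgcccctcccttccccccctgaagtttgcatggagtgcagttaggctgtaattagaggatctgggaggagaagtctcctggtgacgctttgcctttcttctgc

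Acan (chr7:79052976-79053275, + strand): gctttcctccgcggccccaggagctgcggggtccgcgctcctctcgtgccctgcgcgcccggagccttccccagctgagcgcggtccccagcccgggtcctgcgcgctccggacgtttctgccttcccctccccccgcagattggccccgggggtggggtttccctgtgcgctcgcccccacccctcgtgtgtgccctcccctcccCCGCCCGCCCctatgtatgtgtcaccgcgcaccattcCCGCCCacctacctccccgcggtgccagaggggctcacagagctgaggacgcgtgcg

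Col9a1, start 1 (chr1:24177360-24177659, + strand): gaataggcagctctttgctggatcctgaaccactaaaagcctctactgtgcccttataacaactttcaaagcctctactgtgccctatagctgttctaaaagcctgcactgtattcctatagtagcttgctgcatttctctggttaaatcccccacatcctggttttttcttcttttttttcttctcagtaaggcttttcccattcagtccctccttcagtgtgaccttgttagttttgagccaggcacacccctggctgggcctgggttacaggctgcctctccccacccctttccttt

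Col9a1, start 2 (chr1:24194953-24195252, + strand): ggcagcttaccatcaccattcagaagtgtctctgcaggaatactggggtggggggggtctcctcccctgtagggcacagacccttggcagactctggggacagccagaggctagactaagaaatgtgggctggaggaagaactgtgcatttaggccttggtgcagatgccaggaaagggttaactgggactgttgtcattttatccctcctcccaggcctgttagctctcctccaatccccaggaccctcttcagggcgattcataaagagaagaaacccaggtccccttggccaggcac

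Col11a1 (chr3:114030290-114030589, + strand): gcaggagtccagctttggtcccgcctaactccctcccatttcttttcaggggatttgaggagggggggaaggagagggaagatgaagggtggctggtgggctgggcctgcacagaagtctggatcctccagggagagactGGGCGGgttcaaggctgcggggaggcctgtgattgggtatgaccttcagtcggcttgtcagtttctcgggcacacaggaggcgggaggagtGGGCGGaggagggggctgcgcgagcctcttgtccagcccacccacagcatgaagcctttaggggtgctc

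The windows share little in composition. The GC content was 74% for Acan, 62.3% for Col11a1 and 54.3% for Hapln1, while the Col9a1 windows had 47.3% and 55.7%, beside a median of 52.7% over all 32851 promoters of this length. The Sp1 box stood 3 times in the Acan window, with overlapping matches 44 and 40 bases before the start and another 7 bases before it. It stood 2 times in the Col11a1 window, and not in those of Hapln1 or Col9a1. It also stood 3 times at Col9a2 and 1 time at the second of the 2 Matn4 starts (windows not printed), and 35.7% of all promoters held it. The Sox core AACAAT was in 0 of the 8 member windows and in 10.7% of all promoters. The TATA box TATAAA (13.6% of all) and the E-box CACGTG (7.15% of all) were in 0 of the 8 as well. All motifs were searched on both strands, and the absence of a motif says only that these letters are not in this window. The genes themselves lie apart: Col9a3 and Matn4 are on chromosome 2 and the other 6 on 6 different chromosomes.

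In the p53 het cultures all 8 genes were at their highest. Both tumour means lay above all 25 other samples for 8 of 8 genes, a pattern that 7.17% of all 18194 genes shared; the 8 were chosen for it. On single arrays, Matn4 alone of the 8 had a p53 het array (5.19) under the highest other sample, a tissue at 5.28. How many of all genes separate on single arrays was not counted. The median difference of the p53 het tumours from hindbrain NSC over the 8 genes was 5.12. The panels of all arrays show this separation gene by gene.

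**Figure D1:**
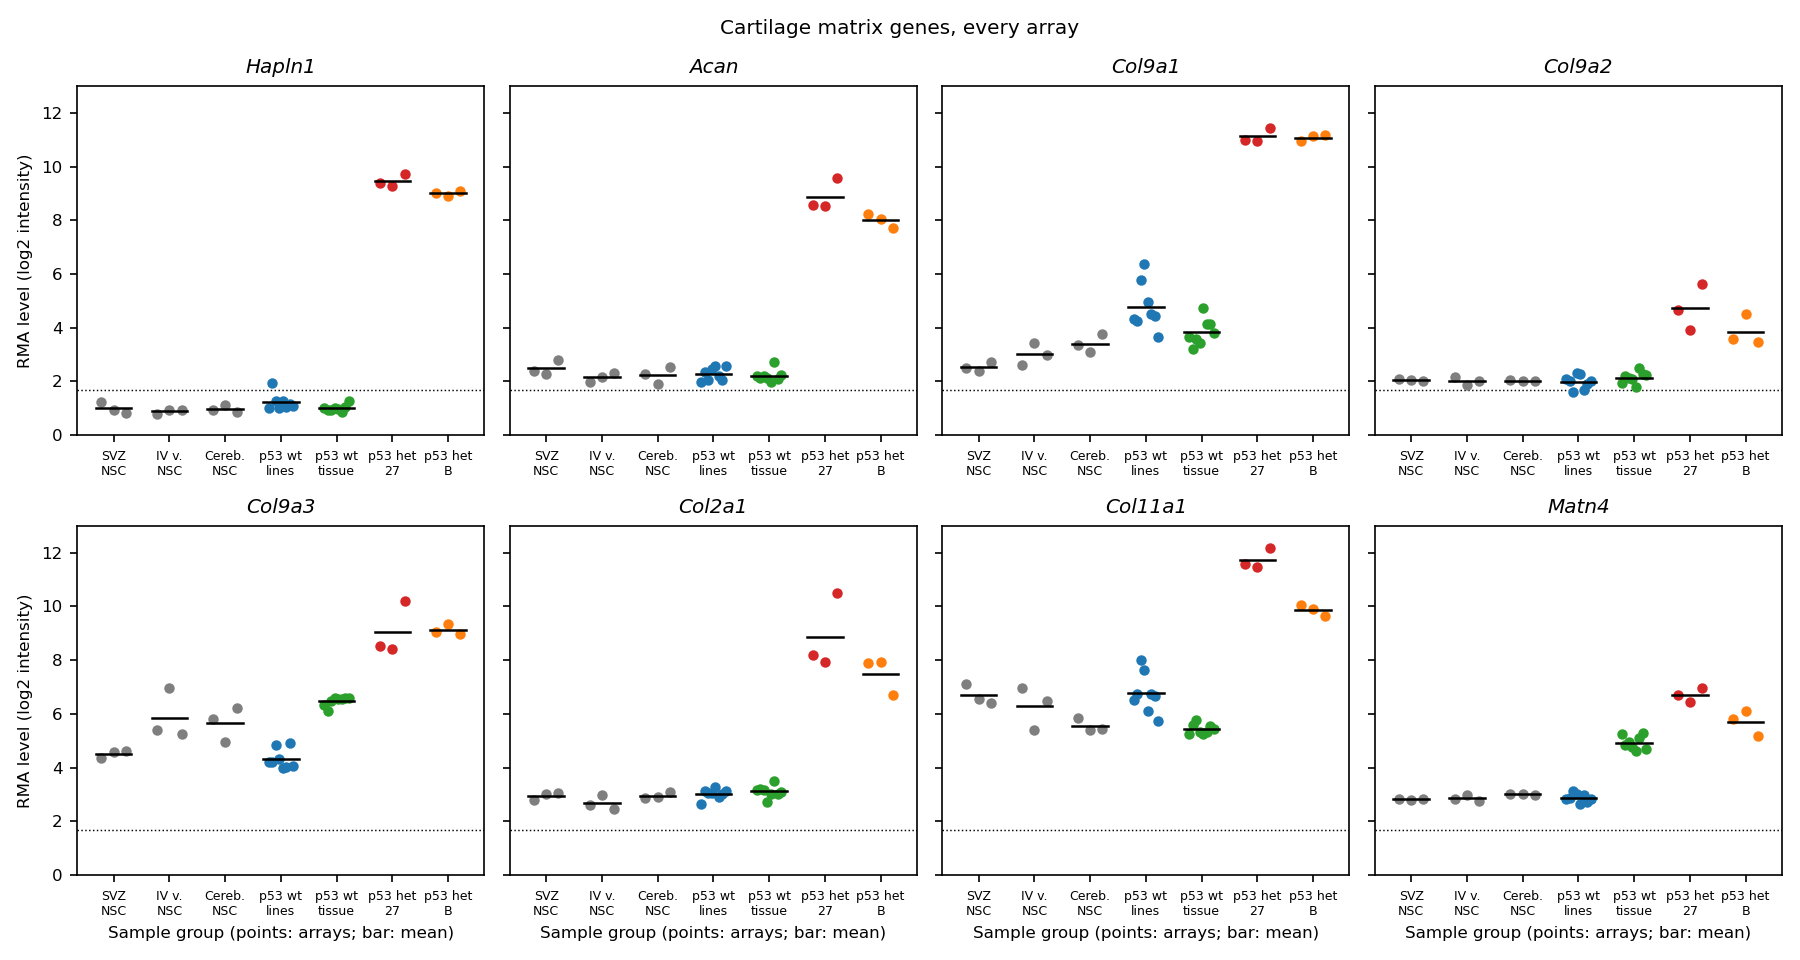
Level of each of the 8 genes (log2 RMA intensity, vertical axis) on every array, by sample group; points are arrays (technical replicates for tumours 27 and B), bars are group means and the dotted line is the top of the background guide at 1.67. The p53 het points lie above all others except for Matn4, where the lowest p53 het array (5.19) is under the highest tissue (5.28).

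Among the fibril genes, type II collagen is described first. Col2a1 (Col2a1 gene, chr15:97975602-98004724, GRCm38) was at 8.19, 7.93 and 10.50 on the 3 arrays of tumour 27 and at 7.88, 7.91 and 6.69 on those of tumour B. In the 6 hindbrain NSC it ran from 2.45 over a median of 2.87 to 3.11, and in the 8 p53 wild-type lines from 2.64 over 3.06 to 3.27. In the tissues it ran from 2.73 over 3.11 to 3.51, and the SVZ cultures were at 2.79, 3.00 and 3.06. The p53 het arrays thus formed a group of their own, while all other groups overlapped one another. The tumour means were 8.87 and 7.50, which is 6.06 and 4.68 above hindbrain NSC. Chromosome 15, where Col2a1 lies, had a median difference of 0.50 between p53 het and hindbrain NSC over its 354 brighter genes, against -0.06 over all 9097 brighter genes; its part in the Col2a1 difference was not tested.

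Col11a1, the α1 chain of type XI collagen (chr3:114030479-114220756), was above the background guide in every group. Its arrays read 11.57, 11.48 and 12.16 for tumour 27 and 10.06, 9.91 and 9.63 for tumour B. The wild-type lines ran from 5.74 over a median of 6.70 to 8.02, hindbrain NSC from 5.38 over 5.65 to 6.98 and tissues from 5.24 over 5.38 to 5.76. Tumour 27 was 5.81 and tumour B 3.94 above hindbrain NSC, and the arrays of the 2 tumours did not overlap. A further probe set of the gene gave 10.90 and 9.43 for the 2 tumours and 5.01 in hindbrain NSC.

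Type IX collagen sits on the surface of the fibrils and is built of 3 different chains. Col9a1, the α1 chain (chr1:24177589-24252738) was at 11.00, 10.96 and 11.45 in tumour 27 and at 10.95, 11.13 and 11.17 in tumour B. Its tumour means, 11.14 and 11.08, differed by 0.05, less than the spread of the technical arrays, and stood 7.93 and 7.87 above hindbrain NSC (2.61 over a median of 3.22 to 3.78). The highest other sample was a wild-type line at 6.38, which is 4.57 below the lowest p53 het array. Both Col9a1 probe sets were higher in the p53 het cultures, by 7.90 and 6.22.

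Col9a2 (chr4:121039566-121055325), which encodes the α2 chain, stayed low everywhere else: 1.86 to 2.18 in hindbrain NSC (median 2.02), 1.60 to 2.30 in the lines (median 2.01) and 1.78 to 2.49 in the tissues (median 2.18). Tumour 27 gave 4.67, 3.91 and 5.62 and tumour B gave 3.57, 4.52 and 3.46. The arrays of the 2 tumours overlapped, and the tumours lay 2.72 and 1.83 above hindbrain NSC, the smallest differences of the 8.

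Col9a3 (chr2:180598102-180622192), the α3 chain, was above the background guide in every group. Tumour 27 read 8.53, 8.40 and 10.19 and tumour B 9.04, 9.34 and 8.98. Hindbrain NSC ran from 4.95 over 5.60 to 6.95, the lines from 3.98 over 4.20 to 4.93 and the tissues from 6.12 over 6.55 to 6.59. The p53 het tumours were 3.29 and 3.36 above hindbrain NSC. Set against the wild-type lines, where this gene was lower, the same values were 4.72 and 4.80 higher. Of the 3 Col9a3 probe sets, 2 differed by 3.33 and 3.76 from hindbrain NSC; the remaining one, at 1.65 and 1.58 in the tumours, lay within the background guide and differed by 0.62.

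The proteoglycan genes had little or no signal outside the p53 het cultures. Acan (chr7:79053226-79115099) was at 8.56, 8.52 and 9.56 in tumour 27 and at 8.24, 8.05 and 7.72 in tumour B. It was between 1.92 and 2.79 in all 25 other samples, with medians of 2.24 in hindbrain NSC, 2.29 in the lines and 2.16 in the tissues. The tumours stood 6.67 and 5.79 above hindbrain NSC, and every tumour 27 array was above every tumour B array.

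Hapln1, the link protein gene (chr13:89540529-89611832), was at 9.40, 9.29 and 9.72 in tumour 27 and at 9.02, 8.89 and 9.09 in tumour B. Hindbrain NSC (0.79 to 1.13, median 0.94), tissues (0.87 to 1.28, median 0.98) and 7 of the 8 lines lay within the background guide. The exception was line 91 at 1.95. Since the lower side is at background, the mean p53 het level of 9.24 is at least 7.57 above hindbrain NSC. All 4 Hapln1 probe sets were higher in the p53 het cultures, by 7.00 to 8.30 against hindbrain NSC.

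Matn4 (chr2:164389393-164405160), a matrilin, was at 6.70, 6.43 and 6.97 in tumour 27 and at 5.81, 6.09 and 5.19 in tumour B. The other cultures were lower, from 2.76 to 3.02 in hindbrain NSC (median 2.98) and from 2.64 to 3.12 in the lines (median 2.84). The tissues lay between, from 4.61 over 4.89 to 5.28, and touched the lowest tumour B array. The tumour means were 3.77 and 2.77 above hindbrain NSC.

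The 2 p53 het tumours were alike in the genes they held high but not in every level. Tumour 27 had the higher mean for 7 of 8 genes, all but Col9a3. For Col9a1 that order depended on the probe set, the further one being higher in tumour B. The tumour 27 arrays lay wholly above those of tumour B for 5 of 8 genes (Hapln1, Acan, Col2a1, Col11a1 and Matn4). The gap was widest for Col11a1, at 1.87, and for Col2a1, at 1.38. Array 3 of tumour 27 was the highest of its 3 arrays for 8 of 8 genes. Over all genes that array did not stand apart, with mean absolute differences of 0.26 from each of the other arrays and 0.25 between those. Without it tumour 27 was above tumour B for 6 of 8 genes, Col9a1 joining Col9a3 on the other side, and the gap shrank to 0.57 for Col2a1 and to 1.66 for Col11a1. With 1 culture per tumour, no test of the difference between the tumours was possible, and the 3 arrays of each are technical replicates. How many of all genes followed the same orders was not counted, so these counts do not set the 8 genes apart.

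The p53 wild-type lines, which share the Ptch allele and the medium, differed from hindbrain NSC in 2 of the 8 genes, beside 9.56% of all 18194 genes. Col9a1 was higher (3.51% of all genes were) and Col9a3 lower (6.06%). Over the 8 genes the median difference was 0.14, against 0.00 over all genes. Nothing in the labels says that cultures of one group came from separate animals beyond the tumour numbers and the words biological replicate. The p-values therefore set each difference against the spread between these samples, pooled over the fit.

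Col9a1 ran from 3.65 in line 83 over a median of 4.47 to 6.38 in line 9, and 1 of the lines overlapped the hindbrain range, which ended at 3.78. The lines averaged 4.79 ± 0.89 (SD, n = 8) and hindbrain NSC 3.21 ± 0.41 (SD, n = 6), a difference of 1.58 ± 0.33 (SE; limma adjusted p = 0.00594). Against cerebellar NSC alone the difference was 1.38 and the call was lost (limma adjusted p = 0.0749). The further Col9a1 probe set differed by only 0.63 between lines and hindbrain NSC, in the same direction. Lines 9 and 92 had the highest Col9a1 levels, 6.38 and 5.77, and also the highest Col11a1 levels, 7.61 and 8.02, while line 83 was lowest for both genes. Both of these high lines belong to the 4 whose sample names share one ending; Col9a1 was 1.98 above hindbrain NSC in those 4 lines (limma adjusted p = 0.00396) and 1.18 above it in the other 4 (adjusted p = 0.0121).

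Col9a3 went the other way. All 8 lines (3.98 to 4.93) were below all 6 hindbrain NSC (4.95 to 6.95), with a difference of -1.44 ± 0.25 (SE; limma adjusted p = 0.00201). The 2 chains of one collagen thus moved in opposite directions in the wild-type lines, whereas both were far higher in the p53 het cultures.

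Col11a1 was 0.84 ± 0.36 higher in the lines than in hindbrain NSC and did not pass the test (limma adjusted p = 0.164). Hapln1, with all of these samples but line 91 within the background guide, differed by 0.29 (adjusted p = 0.203). For the remaining 4 genes the differences were between -0.05 and 0.21, with adjusted p of 0.492 or more. Leaving out each culture in turn kept the count of called genes at 2.

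Tissue and line of the same tumour could be compared in 8 pairs, and 4 of the 8 genes differed, beside 49.6% of all genes. Col9a1 and Col11a1 were higher in the lines (26.6% of all genes were), Col9a3 and Matn4 lower (23.1%). The median difference over the 8 genes was -0.01, against 0.06 over all genes.

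**Figure D2:**
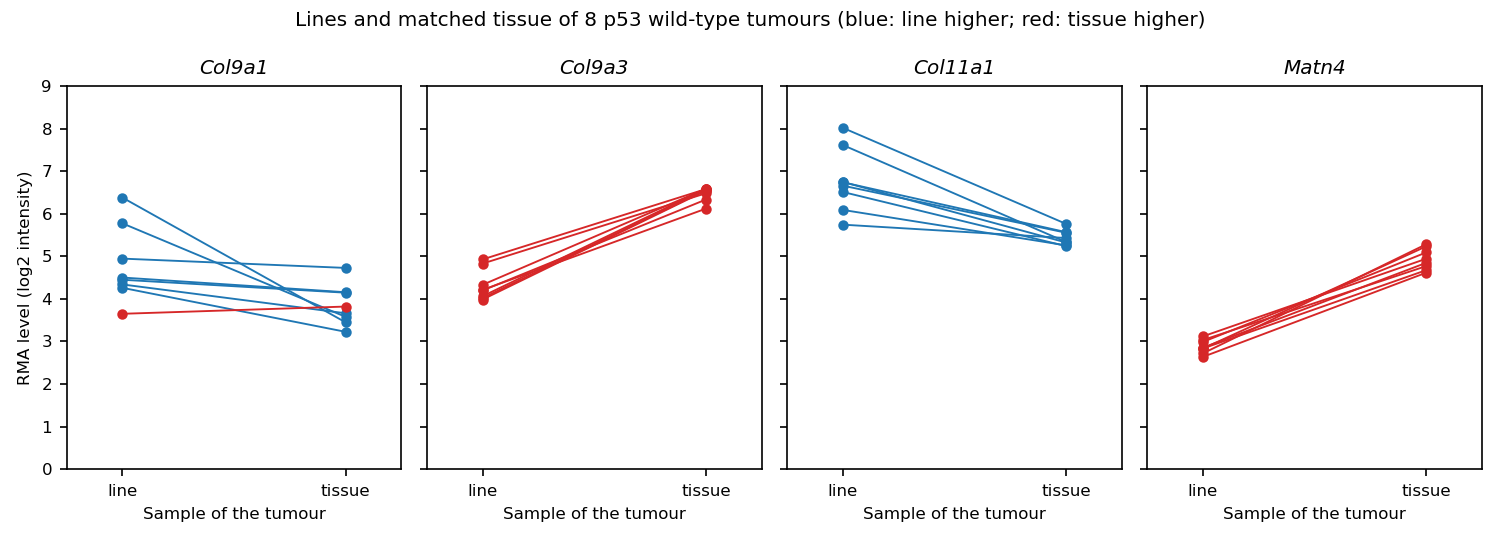
Levels (log2 RMA intensity) of 4 genes in the line and the tissue of each of the 8 p53 wild-type tumours, joined by a line per tumour. Col9a3 and Matn4 fell from tissue to line in 8 of 8 tumours, Col11a1 rose in 8 of 8 and Col9a1 in 7 of 8.

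Matn4 separated the sample types without overlap. The tissues ran from 4.61 to 5.28 and the lines from 2.64 to 3.12, with the line lower in 8 of 8 pairs by 1.74 to 2.56. The paired difference was -2.05 ± 0.10 (SE; limma adjusted p = 9.51e-08). Col9a3 was likewise lower in 8 of 8 lines, by 1.65 to 2.56, and the groups did not overlap (tissue 6.12 to 6.59, lines 3.98 to 4.93). Its paired difference was -2.15 ± 0.12 (SE; adjusted p = 3.15e-07).

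Col11a1 was higher in the line of 8 of 8 tumours, by 0.31 in tumour 83 to 2.28 in tumour 9. The groups overlapped only at the edge, line 83 (5.74) lying under the highest tissue, that of tumour 92 (5.76). The difference was 1.33 ± 0.20 (SE; limma adjusted p = 3.30e-04). Col9a1 was higher in 7 of 8 lines, by 0.94 ± 0.32 (SE; adjusted p = 0.0338). Tumours 9 and 92 carried most of it, at 2.93 and 2.20. The call was lost without either of them (adjusted p = 0.0562 and 0.0835) and also without tumour 74 (0.0525) or 91 (0.0643). In these 4 pairs the names of line and tissue share one ending, and the Col9a1 difference over them was 1.71 (limma adjusted p = 0.0128). In the other 4 pairs the endings of line and tissue differ, and Col9a1 differed by -0.17 to 0.35. The part of the ending in the Col9a1 difference was not tested. The other 4 genes, Hapln1, Acan, Col9a2 and Col2a1, differed by -0.16 to 0.22 and were not called.

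Markers of several cell types also differed between tissues and lines. The 6 microglia markers averaged 5.76 to 6.99 in the tissues against 1.74 to 2.05 in the lines, where Ptprc and Aif1 were at background in all samples, and 6 of 6 were lower in the lines. The 6 endothelial markers averaged 3.19 to 3.78 against 2.09 to 2.42 (6 of 6 lower in the lines), and the 9 granule precursor markers were lower in 9 of 9 cases. Of the 10 fibroblast and mesenchyme markers, 7 were lower and 2 higher in the lines (mean level 3.14 to 4.0 in the tissues and 2.66 to 3.21 in the lines). Of the 7 astrocyte markers, 4 were lower and 1 higher (5.94 to 8.56 and 4.97 to 5.90). Of the 8 neural stem cell markers, 6 were higher and 2 lower in the lines (6.77 to 7.44 in the tissues and 8.14 to 9.37 in the lines). The part of these cells in the Col9a3 and Matn4 differences was not tested. In bulk samples such as these, fewer cells of a type and less RNA per cell cannot be told apart.

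Among NSC of the 3 regions, 0 of the 8 genes passed the limma test in any of the 3 comparisons. Against SVZ cultures, 0.764% of all genes were called for the IV ventricle and 1.1% for the cerebellum, and 0% between the 2 hindbrain regions. At an unadjusted p under 0.05 the members numbered 1, 3 and 0 of 8, where 9.51%, 13.7% and 3.07% of all genes passed. Col9a1 read 3.37, 3.08 and 3.78 in cerebellar cultures, 2.61, 3.43 and 2.98 in IV ventricle cultures and 2.51, 2.37 and 2.73 in SVZ cultures. The cerebellar cultures were 0.87 ± 0.23 above the SVZ cultures (SE, limma adjusted p = 0.125). Col9a3 was likewise lowest in the SVZ, at 5.79, 4.95 and 6.20 in the cerebellum and 5.40, 6.95 and 5.24 in the IV ventricle against 4.34, 4.57 and 4.61 in the SVZ.

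Col9a3 was thus 1.14 above SVZ in cerebellar cultures (limma adjusted p = 0.294) and 1.35 above it in IV ventricle cultures (adjusted p = 0.294). Col11a1 was instead highest in the SVZ, at 5.86, 5.38 and 5.45 in the cerebellum, 6.98, 5.40 and 6.48 in the IV ventricle and 7.13, 6.57 and 6.41 in the SVZ. The cerebellar cultures were -1.14 ± 0.35 (SE) from the SVZ cultures (limma adjusted p = 0.196). With the ending of the sample names as a block, the cerebellar comparison with SVZ called 3 of 8 genes in limma, Col9a1 (adjusted p = 0.00625), Col11a1 (0.0134) and Col9a3 (0.0489); the same fit called 728 of all genes (4%) in place of 201. Without IV ventricle replicate 2 it called Col9a1 (0.0441) and Col11a1 (0.0282), with 520 of all genes called.

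The other genes of cartilage and matrix assembly were read from 8 lists that leave the 8 genes out. Of 102 measured genes, 34 were higher and 7 lower in the p53 het tumours than in hindbrain NSC, beside 13.8% of all genes called higher and 13% lower in limma (26.8% in all). The median difference was 0.24 over the 102 genes and 0.03 over all genes. Against the wild-type lines, which enter a comparison that shares the p53 het samples, 32 were higher and 8 lower, beside 14.5% and 11.8% of all genes (26.3% in all). In the wild-type lines against hindbrain NSC 7 were higher and 8 lower, beside 3.51% and 6.06% of all genes.

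**Figure D3:**
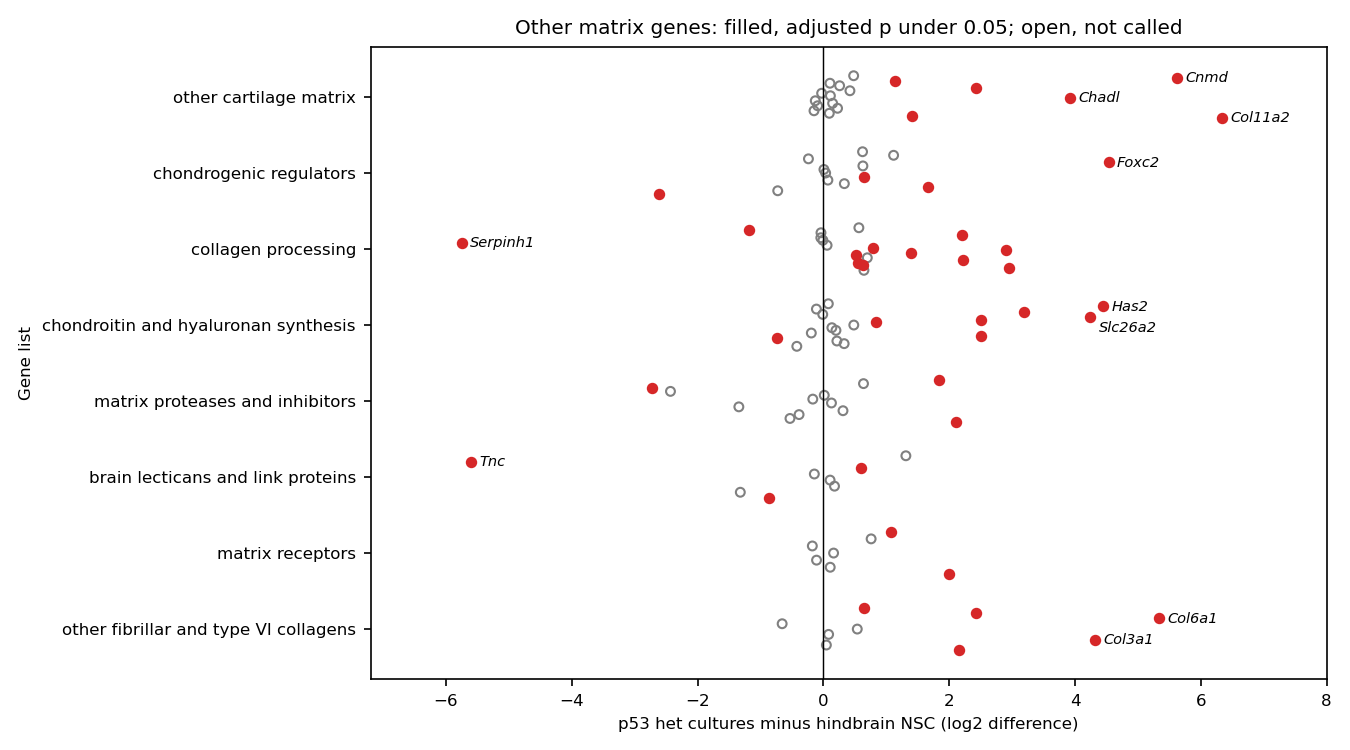
Difference between p53 het tumours and hindbrain NSC (log2, horizontal axis) for the 102 other genes in 8 lists (vertical axis); filled points passed limma's adjusted p threshold of 0.05, open points did not, and genes beyond 3.9 are named. Col11a2, Cnmd and Col6a1 lie farthest to the right, Serpinh1 and Tnc farthest to the left.

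Of 18 other cartilage matrix genes, 6 were higher and 0 lower (median 0.24). Col11a2, which encodes the partner chain of Col11a1 in type XI collagen, was at 9.04 and 8.17 in tumours 27 and B and between 2.12 and 2.43 in hindbrain NSC. It rose by 6.34 ± 0.18 (SE; limma adjusted p = 1.35e-13), and the lines (1.97 to 2.54) and tissues (1.99 to 2.70) were as low as NSC. Cnmd, which encodes the cartilage growth factor chondromodulin, was at background in hindbrain NSC (mean 1.37) and reached 7.31 and 6.67, a rise of at least 5.33 (adjusted p = 2.41e-13). Chadl rose by 3.92 and Snorc by 2.42; both are known from cartilage. Snorc was at 3.81 in tumour 27 and 5.45 in tumour B, and its difference was 1.60 without tumour B. The remaining 12 genes of the list were not called, so the rise took in part of the cartilage set.

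Of 13 chondrogenic regulators, 3 were higher and 1 lower, with a median of 0.33. Sox9, the main activator of the collagen II, IX and XI genes in chondrocytes, was the one that fell. It was at 3.06 and 4.59 in tumours 27 and B, between 5.78 and 7.05 in hindbrain NSC and between 6.55 and 7.97 in the lines. The difference from hindbrain NSC was -2.61 ± 0.37 (SE; limma adjusted p = 4.99e-05), and all 3 Sox9 probe sets were lower, with differences of -2.61, -1.90 and, for a probe set near background, -0.23. The wild-type lines were higher than hindbrain NSC for this gene, by 0.94 ± 0.25 (SE; adjusted p = 0.0221).

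Sox6, a partner of Sox9, rose by 1.66 ± 0.28 (SE; limma adjusted p = 2.62e-04). Sox5, the other partner (named here after its value was seen), was at 7.05 and 5.96 against 6.90 to 7.61 and was not called (adjusted p = 0.176). Foxc2, a forkhead factor of mesenchyme and skeletal precursors, rose from background to 6.41 and 4.93, at least 4.01 (adjusted p = 1.56e-07). Pax9 rose by 0.65, and without tumour B its difference was 0.30 and its call was lost.

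**Figure D4:**
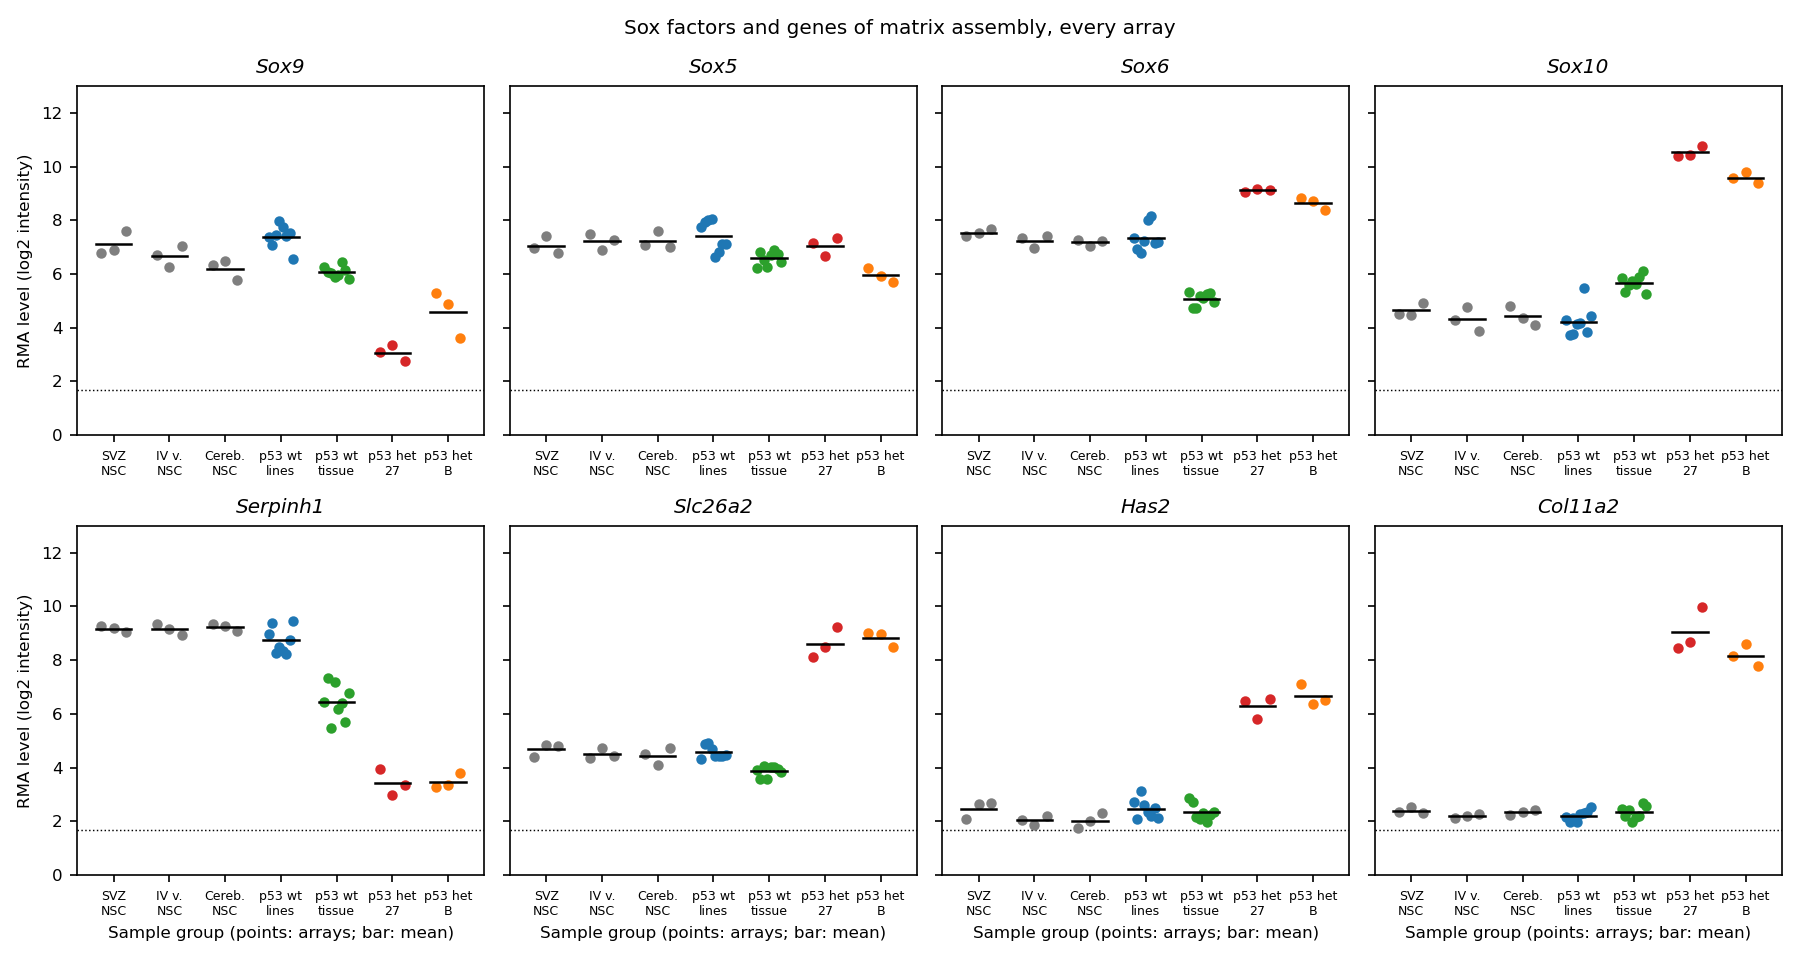
Levels (log2 RMA intensity, vertical axis) of 4 Sox factors and of 4 genes of matrix assembly on every array, by group; points are arrays, bars group means, and the dotted line the top of the background guide. Sox9 and Serpinh1 are lowest in the p53 het arrays, while Sox10, Slc26a2, Has2 and Col11a2 are highest there; the 8 genes were picked after their values were seen.

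Collagen chains are hydroxylated and folded in the endoplasmic reticulum before secretion. Of 18 processing genes, 9 were higher and 2 lower in the p53 het tumours, with a median of 0.60. The hydroxylases P3h2 (2.90 ± 0.32, SE; limma adjusted p = 3.38e-06), Plod1 (2.22 ± 0.28; 1.47e-05), P4ha2 (2.96 ± 0.58; 9.13e-04) and P3h1 (1.39 ± 0.22; 1.48e-04) were among those that rose. Serpinh1, which encodes the collagen chaperone HSP47, fell instead. It was at 3.42 and 3.47 in tumours 27 and B against 8.94 to 9.35 in hindbrain NSC and 8.22 to 9.47 in the lines. The difference was -5.75 ± 0.28 (SE; adjusted p = 1.24e-10), and both of its probe sets were lower, by 5.75 and 6.50. Bmp1, the procollagen C-proteinase, fell by 1.18, and without tumour B its difference was -0.73 and its call was lost.

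Aggrecan needs sulphate and sugar donors and a hyaluronan strand to bind to. Of 17 chondroitin and hyaluronan synthesis genes, 6 were higher and 1 lower, with a median of 0.21. Slc26a2, the sulphate transporter whose loss causes chondrodysplasia, was at 8.62 and 8.82 against 4.11 to 4.74 in hindbrain NSC, a rise of 4.24 ± 0.19 (SE; limma adjusted p = 5.79e-11). Has2, a hyaluronan synthase, rose by 4.45 ± 0.24 (SE; adjusted p = 7.61e-10) and Ugdh, which makes UDP-glucuronate, by 3.19 ± 0.35 (adjusted p = 2.87e-06). Chsy3, a chondroitin synthase, rose by 2.51 while Chsy1, its relative, fell by 0.74.

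The lists of proteases and inhibitors, brain lecticans and link proteins, and matrix receptors had smaller median differences (-0.08, -0.02 and 0.16). Of 12 proteases and inhibitors, 2 were higher (Adamts1 by 2.11, Timp3 by 1.83) and 1 lower (Timp1, which fell by 2.72). Of 8 brain lecticans and link proteins, the relatives of Acan and Hapln1 that mark brain matrix, 1 was higher (Hapln4, 0.59) and 2 were lower. Tnc, the tenascin of the neural stem cell niche, fell by 5.61 ± 0.59 (SE; limma adjusted p = 2.01e-06) and Bcan, brevican, by 0.86. Without tumour 27 the differences of Timp3 and Hapln4 were 0.82 and 0.21, and without tumour B that of Bcan was -0.29. Of 7 matrix receptors, Itga1 (2.00) and Cd44 (1.08), a hyaluronan receptor, were higher and 0 were lower.

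Of 9 other fibrillar and type VI collagens, 5 were higher and 0 lower, with a median of 0.64. Col6a1 stood at 8.96 and 6.54 against 2.05 to 2.67 in hindbrain NSC and Col6a2 at 7.35 and 5.77 against 3.98 to 4.34. Col3a1 and Col1a1, fibrillar collagens of other connective tissues, were mainly high in tumour B. Col3a1 was at 3.26 in tumour 27 and 8.33 in tumour B, and Col1a1 at 2.21 and 6.01, and without tumour B their differences from hindbrain NSC were 1.78 and 0.26. This was the reverse of the order of the cartilage collagens Col2a1 and Col11a1. Calls of Timp3, Hapln4, Itga1 and Cd44 were lost without tumour 27, and those of Col1a1 and Bcan without tumour B.

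Markers of other cell types moved in the same samples. Of 8 oligodendrocyte precursor markers, 5 were higher and 2 lower in the p53 het tumours (limma against hindbrain NSC), with a mean level of 8.77 to 9.39 against 6.62 to 7.35; Olig1 and Olig2 were the 2 that fell. Of 7 neural crest and Schwann cell markers, 4 were higher and 0 lower (5.42 to 5.95 against 3.28 to 3.59). Among them Sox10 was at 10.53 and 9.59 against 3.87 to 4.82, and Erbb3, the neuregulin receptor, at 9.73 and 8.62 against 1.87 to 2.48. Of 10 fibroblast and mesenchyme markers, 5 were higher and 1, Thy1, was lower (3.43 to 4.17 against 3.02 to 3.40). Among 5 melanocyte markers 3 were higher (3.62 to 3.98 against 2.16 to 2.54), with Tyr at background in the p53 het tumours and hindbrain NSC. The part of any of these in the levels of the 8 genes was not tested.

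Of 4 osteoblast markers 0 were higher and 1 was lower (2.20 to 2.36 against 2.54 to 2.77), and Ibsp was at background in the p53 het tumours. Of 7 astrocyte markers 0 were higher and 4 lower (3.69 to 5.55 against 6.07 to 7.69), with Aqp4 at background in the p53 het tumours, and 5 of 8 neural stem markers were lower and 0 higher. Microglia and endothelium each had 0 of 6 markers called in limma, with Ptprc and Tek at background in the p53 het tumours.

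The profile of the 8 genes over the 19 cultures, each gene centred on its own mean, was closest to that of Smoc2, at a root mean square difference of 0.25 on the log2 scale. Cnmd and Susd5 followed at 0.28 each, then Hs3st1 (0.29), Cryl1 (0.30), Chst5 (0.31), Mgp (0.33) and Kctd4 (0.33); the median gene stood at 1.59. Cnmd and Mgp, the matrix Gla protein gene, are known from cartilage. Smoc2, a secreted calcium-binding matrix protein gene, was at 7.09 and 6.33 in tumours 27 and B, with means of 1.34 in the lines, 1.22 in NSC and 1.27 in tissue. Mgp was at 7.03 and 5.52 in the tumours and 1.80 in the lines, but at 5.80 in tissue, and in that it was like Matn4. This likeness is set by the 2 p53 het tumours. Without them, over 17 cultures, the mean profile of the 8 genes had a root mean square size of 0.20, and the nearest genes were others (Smarcad1, Paip2b, Zfp384, Braf, Ppox, Ric8b, Mtpn and Zfp655, at 0.12 to 0.13).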

How the data were processed

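Total RNA of 31 samples was hybridised to 1 Affymetrix mouse array each. The authors deposited 1 log2 intensity for each probe set, made with RMA, per the submitters' processing notes; its version, any detection calls and a build are not given in those notes or the labels. They were used as deposited (0.417 to 12.9). Of 45101 probe sets, 34958 carried 1 symbol, 932 several and 9211 none that was listed here; 34754 were matched through Entrez identifiers, with 0 symbols changed. Each of 18194 genes kept its probe set with the highest mean. Technical replicates were averaged, which left 27 samples.

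Groups were compared with limma 3.58.1 in R 4.3.3 (lmFit, eBayes, two-sided) and Benjamini-Hochberg adjustment over all genes at 0.05. The 19 cultures shared 1 fit (14 residual degrees of freedom), the 9 NSC another (6), and lines and tissues were fitted with the tumour as a block (7), since both carry one tumour number. The 2 p53 het tumours were taken to vary as much as the remaining cultures. Deviations of NSC with the same replicate number correlated at 0.32, 0.25 and 0.32 between IV ventricle and SVZ. The correlations were 0.18, 0.34 and 0.17 between cerebellum and SVZ, and 0.38, -0.14 and -0.06 between IV ventricle and cerebellum. Cultures with different numbers were not compared, so pairing by number was not established and the main NSC fit left it out. On simulated data the fits recovered 91% (lines against hindbrain NSC) and 93% (lines against tissue) of genes changed by 1 log2 unit. The simulation drew independent noise for each sample, without a tumour effect, and left the p53 het tumours out. Comparisons with those tumours were therefore not covered by it.

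The 8 genes, the lists and the tests were chosen with earlier results of these data known. Named are the 8 genes, Ptch1, up to 4 called genes per list and comparison with the smallest p in the direction with more calls and up to 2 in the other, the 8 nearest profiles, and markers that check a label. Coordinates and promoters are from RefSeq (GRCm38.p6). Alternatives were array scalings, probe set means, dim genes, the prior, arrays, references, blocks and leaving out samples. The number of arrays limits the precision. Python 3.11.15, pandas 2.3.3, numpy 2.4.6 and matplotlib 3.10.9 were used.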

Additional observations from a re-analysis of the deposited data

Results flagged for a closer look

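In 3 of the 16 groups of 8 that were examined for a sample far from the rest, the highest sample's gap to the next exceeded Dixon's critical value of 0.526 of the group's range; chance gives about 1 in 20. Hapln1 was at 1.95 in the line of tumour 91, with the next line at 1.28, and line 91 was the only sample outside the p53 het cultures above the background guide. Hapln1 was at 1.28 in the tissue of tumour 83, with the next tissue at 1.05, both within that guide. Acan was at 2.72 in the tissue of tumour 68, with the next tissue at 2.23.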

How the results depend on the processing

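The median difference of the 8 genes between p53 het tumours and hindbrain NSC was 5.12, and ranged from 4.87 (tumour 27 without its array 3, an alternative chosen after the data were seen) to 5.19 (mean of all probe sets). Leaving out dim genes left 9097 genes, with only Col9a3 and Col11a1 of the 8 to test. The count of called genes was then 1 in place of 2 for lines against hindbrain NSC, beside 1620 of the 9097. For lines against tissue it was 2 in place of 4, beside 6254 of the 9097. Among the other matrix genes 48 of 102 were left. For p53 het against hindbrain NSC 23 of them were called in place of 41, beside 3899 of the 9097. Against the lines 24 were called in place of 40, beside 3865 of the 9097. The matrix genes thus stood closer to all genes here than in the main fit. With cerebellar NSC as the reference 1 of the 8 was called in the lines, Col9a3. Leaving out each sample in turn gave counts of 2 to 2 for lines against hindbrain NSC and 3 to 4 against tissue. It gave 0 to 0 for IV ventricle against SVZ or cerebellum, 0 to 2 for cerebellum against SVZ (2 without IV ventricle replicate 2), 35 to 42 for matrix genes against hindbrain NSC and 34 to 42 against the lines. With the ending of the sample names as a block, cerebellum against SVZ called 3 of the 8 and 728 of all genes in place of 201. The replicate block left the member count at 0 in each of the NSC comparisons. With it, 196 and 280 of all genes were called for IV ventricle and cerebellum against SVZ, in place of 139 and 201. The tumour block changed no call among the 8. Ncan, lower in p53 het than in the lines by -1.45 in all, was at -2.95 without tumour 27 and at 0.048, the other sign, without tumour B (limma adjusted p = 0.959); the cause was not tested. Levels within the background guide carry no order.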
